A study of Mus musculus with 26 samples.

Results

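The genes described here encode proteins of the synaptic vesicle and of its fusion with the plasma membrane. They were taken by symbol: Syt, Vamp, Stx and Stxbp followed by a number, Sv2a to Sv2c, Syn1 to Syn3, Rab3a to Rab3d, Cplx1 to Cplx4, and Syp, Snap25, Unc13a, Rims1, Bsn and Pclo. Of the 69 gene rows that matched, 63 had at least 10 counts in at least 3 of the 26 libraries, out of 33453 gene rows in all. These are 16 synaptotagmins, 14 syntaxins, 8 syntaxin-binding proteins, 6 vesicle SNAREs (Vamp), 4 Rab3 GTPases, 4 active zone genes, 3 SV2 genes, 3 synapsins, 3 complexins, and the pair Syp and Snap25. Cplx4, Stx11, Stxbp3-ps, Stxbp3b, Syt8 and Vamp7 did not reach that number of counts. A total of 61 of the 63 were listed in every library, and the other 2 rows, Stxbp3 and Stxbp3a, are given last.

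A nerve terminal keeps transmitter in vesicles that synapsins tether to the cytoskeleton and that Rab3 GTPases carry to the active zone. There RIM and Munc13 (Rims1, Unc13a) dock and prime them, and Bassoon and Piccolo (Bsn, Pclo) are giant scaffolds. Fusion is driven by the SNARE complex of synaptobrevin (Vamp2), a syntaxin and SNAP-25 (Snap25), with complexins clamping the complex and synaptotagmins sensing calcium. Medium spiny neurons, the projection neurons of the striatum, release GABA by this machinery.

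RNA came from the accumbens nucleus, a ventral striatal reward region, of adult Drd2-TRAP mice of line CP101. Their Drd2-EGFP/Rpl10a transgene puts EGFP on ribosomal protein L10a under control of the Drd2 promoter, which is active in D2 medium spiny neurons and in cholinergic interneurons of this region. All groups shared this line and a strain recorded as FVB/N-Swiss Webster crossed to C57BL/6 for a minimum of 9 generations, and all mice took saline or cocaine by long-access intravenous self-administration. Polysomes immunopurified with anti-EGFP antibodies gave 24 libraries in 5 groups: saline (n = 3), nonescalating cocaine (n = 5), escalating cocaine (n = 2), saline withdrawal (n = 6) and nonescalating withdrawal (n = 8). Input RNA gave 1 saline and 1 nonescalating library. The descriptions of the 5 nonescalating libraries name withdrawal, which is absent from their titles; the titles were followed. The withdrawal groups come from 2 sets of library numbers (set 1 up to 1825, set 2 from 1836), and the other groups lie in set 1. The labels do not say whether a library is 1 animal or a pool, so p-values measure the spread between libraries.

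Total gene counts ran from 1.54 M to 17.5 M in immunopurified libraries and were 4.70 M and 37.5 M in the inputs. Levels are CPM, counts per M of the TMM-scaled library. Before TMM scaling, 3 counts correspond to between 0.171 and 1.95 CPM in the immunopurified libraries. Drd2 was at 243 to 3103 CPM in immunopurified libraries against 279 and 392 in the inputs, and was below both inputs in 1 library, nonescalating 1813. The cholinergic list summed to 13.8 to 103 CPM after immunopurification and to 95.0 and 170 CPM in the inputs. The summed level of 6 endothelial and mural cell markers was 235 to 6821 CPM in immunopurified libraries against 264 and 150 in the inputs. In set 1 that sum was at least 1039 CPM, and in set 2 at most 834. Its part in the results below was not tested. In bulk RNA, fewer cells of a type and less RNA per cell cannot be told apart.

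**Figure D1:**
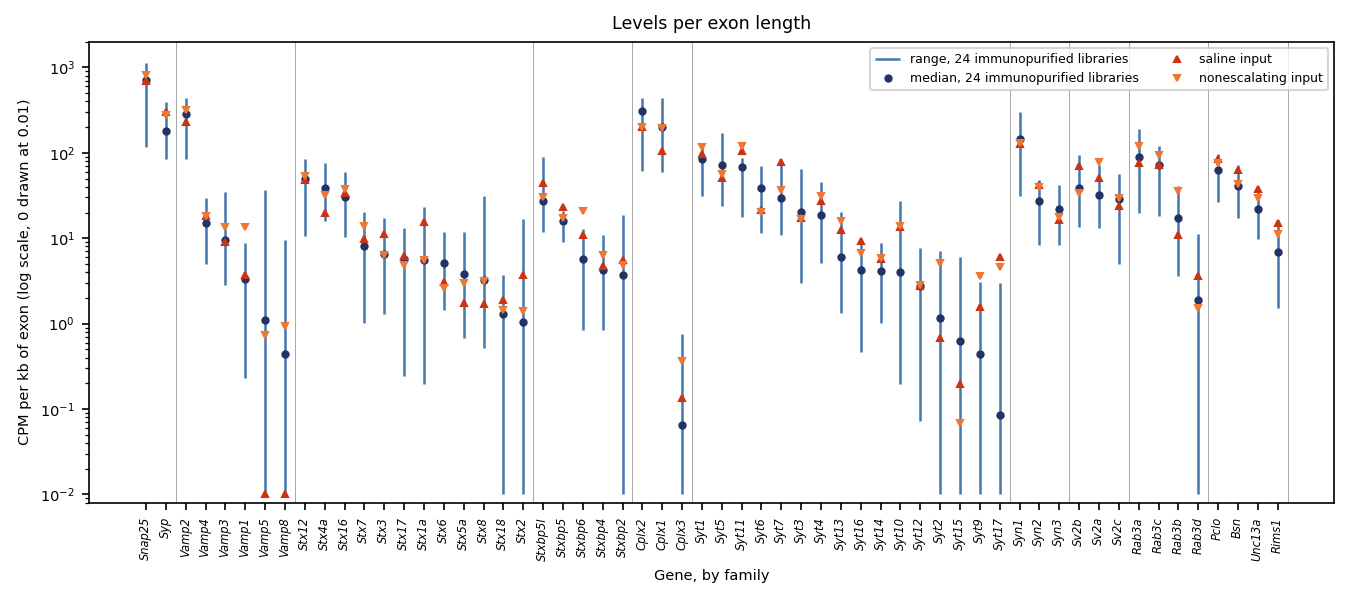
CPM per kb of exon (log axis, 0 drawn at 0.01) for the 58 genes with a median above 0 that are reported here, grouped by family with grey lines between families. Points are medians and bars the range over 24 immunopurified libraries, triangles the 2 inputs; Snap25, Cplx2 and Vamp2 stand highest, and bars reach the floor for low genes such as Syt9 and Vamp8.

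Levels were compared between genes per kb of merged exon length (GENCODE annotation of GRCm38). Some of the core genes of vesicles and fusion stood highest. Snap25 (chr2:136713453-136782428, plus strand), the target-membrane SNARE, had a median of 704 CPM per kb over the 24 immunopurified libraries, with a range of 118 to 1134. Cplx2 followed at 312 CPM per kb, Vamp2 at 287, Cplx1 at 200, Syp at 180 and Syn1 at 147. Syp is synaptophysin, the abundant vesicle membrane protein that binds synaptobrevin. The ranges of neighbours in this order overlapped. The lowest medians were those of Vamp8 at 0.437 CPM per kb, Syt17 at 0.0856, Cplx3 at 0.0646 and Stx19 at 0.

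Within families 1 or a few paralogues carried most of the RNA. Vamp2 held a median of 98.6% of the summed per-length level of Vamp1 and Vamp2, with a range of 90.7% to 99.9%. The 2 complexins of neurons, Cplx2 and Cplx1, stood at 61.9% and 38.1%, and Cplx3, known from retinal ribbon synapses, was near the floor. Among the Rab3 GTPases, Rab3a held 48.8% and Rab3c 36.3%. The synapsins were led by Syn1 at 73.4%, with Syn2 at 14.6% and Syn3 at 11%. The SV2 glycoproteins, the vesicle proteins that include the target of levetiracetam (Sv2a), were closer to one another, with medians of 37.7% for Sv2b, 34.8% for Sv2a and 30.3% for Sv2c. The giant scaffolds were at 62.7% for Pclo and 37.3% for Bsn.

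Synaptotagmins were led by the fast calcium sensor Syt1 (median 21.7% of the family per length), Syt5 (19.8%), the non-calcium-binding Syt11 (18.7%) and Syt6 (10.5%). Syt2, the sensor of fast hindbrain synapses, had a median of 0.26% and Syt9 0.11%. Syt7, the slow, high-affinity sensor of asynchronous release, stood at 8.54% and Syt4 at 5.80%. Only Syt1, Syt5, Syt11 and Syt6 of the 16 paralogues had medians above 10%, and the order of Syt1, Syt5 and Syt11 changed from library to library.

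The spread between libraries was wide. The CV over 24 libraries had a median of 34.9% for the 4 genes above 1000 CPM, against 35.6% for all 77 genes in that range. It was 40.2% for 23 genes between 100 and 1000 CPM against 39.1% for 1891 genes, and 58.9% for 22 genes between 10 and 100 CPM against 63.0% for 6553 genes. Below 10 CPM it was 125% for 12 genes against 209% for 12454 genes. The release genes had been kept for a minimum number of counts, and the 12454 genes had not. The lower median of the release genes in this range therefore cannot be told from an effect of that selection. The steadiest was Stxbp5 (tomosyn, a syntaxin-binding inhibitor of SNARE assembly), at 149 to 340 CPM and a CV of 21.0%.

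**Figure D2:**
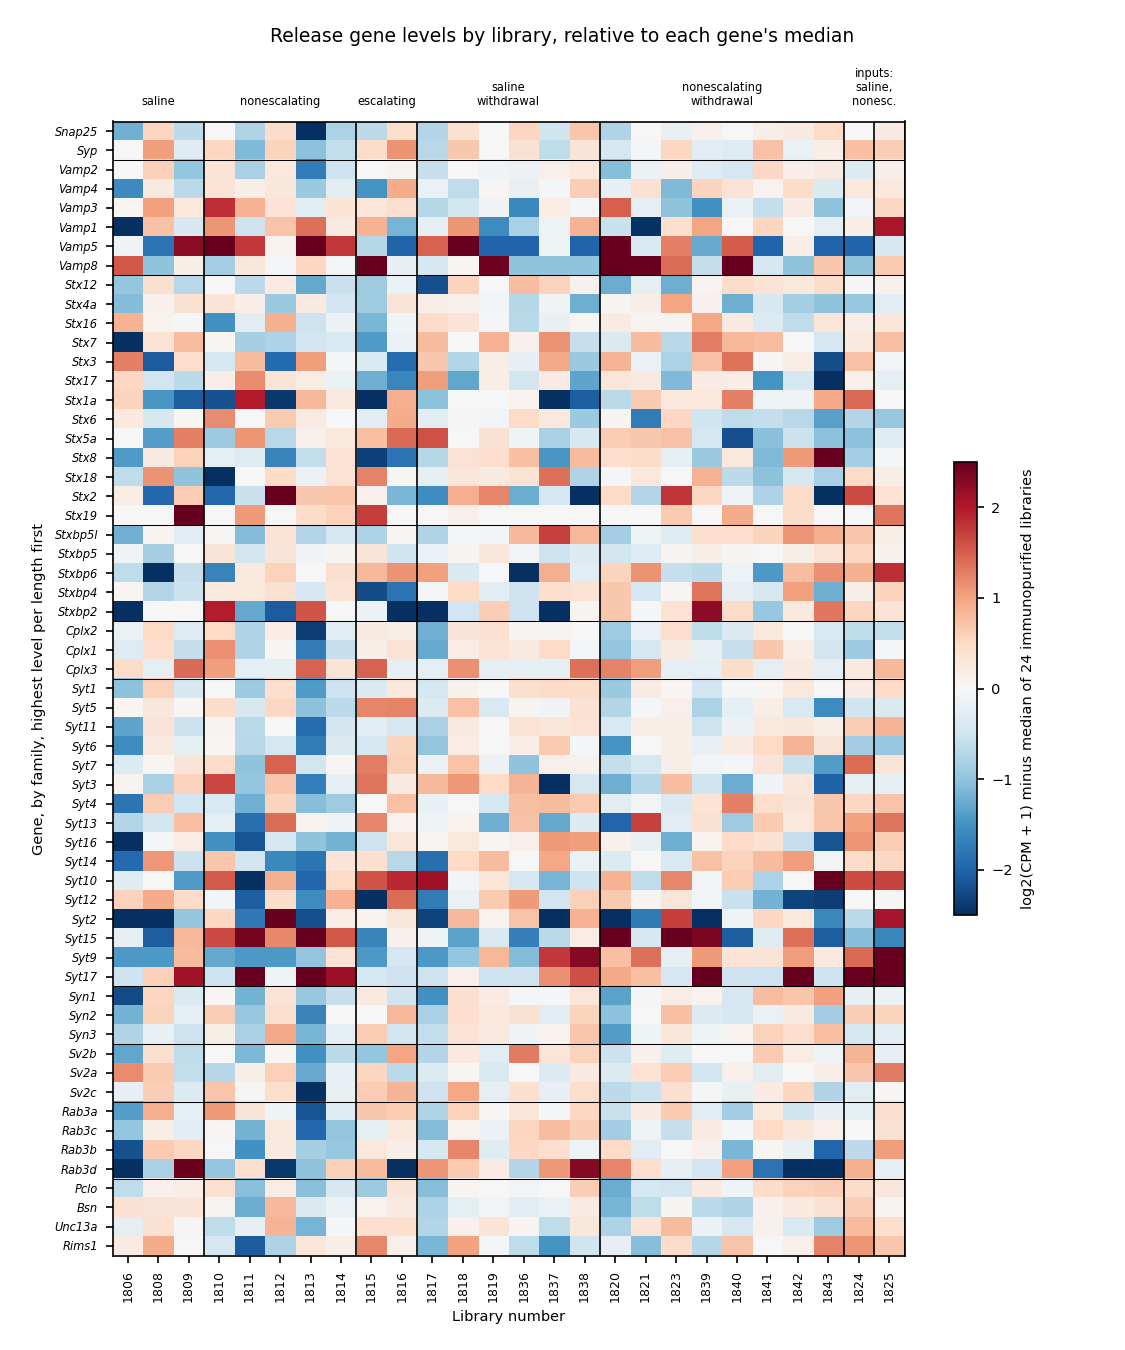
Colour gives log2(CPM + 1) of each of 59 genes (rows, by family) in each library (columns, by group) minus its median over 24 immunopurified libraries. Nonescalating library 1813 is blue for most core genes, and rows with low counts vary most.

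Part of that spread ran along whole libraries. The 61 genes together made up 6659 CPM in nonescalating library 1813 and 25226 CPM in saline library 1808, with a median of 18726, against 20452 and 21622 in the inputs. Library 1813 was the lowest of the 24 for 12 of 19 core genes, among them Snap25 at 802 CPM. The same library had the lowest Drd2 and, at 76828 CPM, the highest Malat1, a nuclear noncoding RNA. The 3 saline libraries were at 13023, 25226 and 14624 CPM, so that 1 of 3 controls stood far above the other 2. The summed levels of the 5 groups overlapped.

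Immunopurified RNA was compared with input to see which release genes are richer on ribosomes of tagged cells than in the whole accumbens. None of the 58 genes tested passed an adjusted p of 0.05 in edgeR's quasi-likelihood test over 14929 genes, of which 38 passed (0.255%), all higher. An unadjusted p under 0.05 was reached by 4 of 58 genes (6.90%) and 8.27% of all genes. DESeq2 called 1 of the 58, Vamp5, among 757 of all genes (5.07%). Limma voom with quality weights called 10 of the 58 among 1090 of all genes (7.30%; 530 lower, 3.55%): Syt15 higher, and Stxbp6, Sv2a, Syp, Syt4, Syt9, Syt10, Syt11, Syt16 and Syt17 lower. A total of 40 of 58 genes had lower values in the 8 immunopurified libraries, with a median log2 fold change of -0.44 where the median of all genes was 0.07. For scale, Drd2 was 2.46 higher (SE 0.71) and Drd1 2.08 lower (log2 -2.08, SE 0.56), with adjusted p values of 0.171 and 0.128 in the same test. All 6 D2 markers and all 6 endothelial and mural markers had higher values (medians 1.74 and 4.22). Lower values were found for all 6 D1 markers (median -2.11), all 6 of GABA interneurons (-2.42), all 5 of glutamatergic neurons (-2.19), all 5 of cholinergic interneurons, 5 of 6 of oligodendrocytes (-2.25) and 5 of 6 of astrocytes (-0.88). Their part in the lower values of the release genes was not tested.

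**Figure D3:**
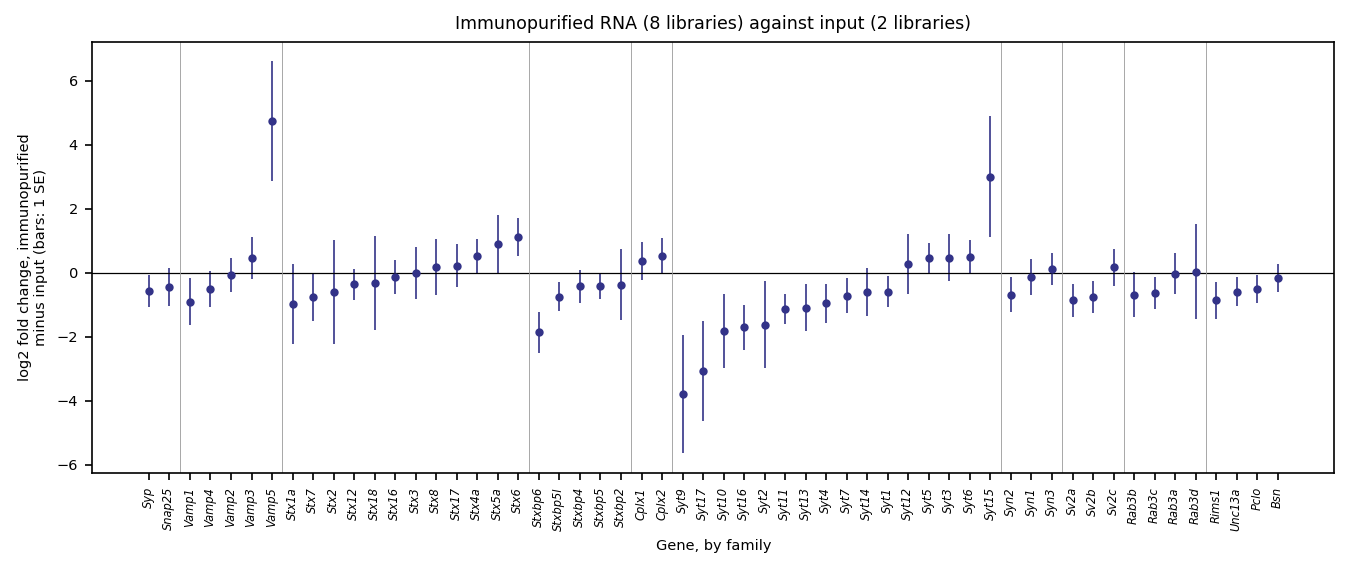
Log2 fold change of immunopurified RNA (8 libraries) over input (2 libraries) for 56 genes, by family, with bars of 1 SE. Most points lie below 0, the Stxbp genes entirely, and the widest bars belong to low genes such as Vamp5 and Syt9.

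Every Stxbp gene in that comparison (6 of 6), all 4 active zone genes, and Syp and Snap25 had negative fold changes, while both complexins were positive. Stxbp6 (amisyn, a SNARE-binding inhibitor of fusion; chr12:44852484-45074709, minus strand) was at 4.48, 19.3 and 19.9 CPM in saline and 8.81, 30.4, 35.9, 40.6 and 45.5 CPM in nonescalating libraries. The inputs were at 57.1 and 111 CPM, above all 8. Its log2 fold change was -1.87 (SE 0.65, adjusted p = 0.316).

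Syt11 (chr3:88744700-88775164, minus strand) lacks the calcium ligands of Syt1. It was at 140, 241 and 439 CPM in saline and at 91.8, 222, 257, 354 and 371 CPM in nonescalating libraries. The inputs stood at 546 and 632 CPM, again above all 8, which gave -1.14 on the log2 scale (SE 0.48, adjusted p = 0.486). Syt16 (-1.71, SE 0.71), Syt10, Syt17 and Syt9 were also below both inputs in all 8 libraries. Syt17 and Syt9 were at or below 3 counts in 12 and 10 of the 24 immunopurified libraries. Stx6, a syntaxin of the Golgi and endosomes, was above both inputs in all 8 libraries, at 41.1 to 124 CPM against 32.3 and 27.8 CPM (log2 1.11, SE 0.59, adjusted p = 0.669). Over all 24 immunopurified libraries, Syt11 and Syt17 stayed below both inputs. Stx6 (15.4 to 124 CPM), Stxbp6 (4.48 to 68.0), Syt16 (4.29 to 83.1), Syt10 (0.363 to 49.7) and Syt9 (0 to 12.3) overlapped the inputs.

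In all 8 libraries, 6 of 58 genes (10.3%) lay below both inputs where 4.27% of all tested genes did, and 1 of 58 (1.72%) lay above where 3.26% did. Vamp5, a SNARE described in muscle and endothelium, had the largest positive value (log2 4.73, SE 1.86, adjusted p = 0.440). It ran from 0.118 to 100.7 CPM in the 8 libraries, against 0 and 2.01 CPM in the inputs, and the endothelial and mural markers were 1039 to 6821 CPM in those 8 libraries. Its highest level was in library 1810 and the highest marker sum in library 1806, where Vamp5 was at 2.79 CPM. In library set 2, where the marker sum was at most 834 CPM, Vamp5 was at 0 to 10.4 CPM. Whether Vamp5 follows these markers was not tested. Vamp5 was at or below 3 counts in 8 of 24 immunopurified libraries.

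Shares within a family do not depend on the scaling between libraries. A share also rises when paralogues fall, so a higher share does not mean a higher level than in the inputs. Syt6 belongs to the subclass of Syt3 and Syt10, which form disulfide-linked dimers. It took 5.73% to 17.3% of the synaptotagmin RNA per length in the 24 immunopurified libraries and 4.77% and 4.41% in the inputs, so that 24 of 24 lay above both. By level Syt6 overlapped the inputs, at 67.1 to 411 CPM in the 24 libraries against 124 and 118 CPM. The Syt5 share lay above both inputs (11.4% and 12.2%) in 23 of 24 libraries, with nonescalating withdrawal library 1843 the exception at 7.48%. The Syt11 share lay below both inputs (23.5% and 26.4%) in 23 of 24, at 9.75% to 23.7%, again with library 1843 the exception. The Syt1 share overlapped the inputs.

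Among the synapsins, the Syn2 share lay below both inputs (22.3% and 21.2%) in 23 of 24 libraries and the Syn3 share above both (8.84% and 9.52%) in 22 of 24. The exceptions were escalating library 1816, at 28.6% for Syn2, and saline library 1808, at 7.07% for Syn3. The Syn3 share of library 1816, 9.49%, lay between the inputs. The Sv2c share lay above both inputs (16.4% and 21.1%) in 21 of 24 libraries, while Sv2a and Sv2b shares overlapped the inputs. Sv2c is the SV2 protein concentrated in the basal ganglia. The Syn1 share lay above both inputs in 20 of 24 libraries and below both in 4. By level, log2 fold changes against input ran from -0.69 to 0.12 in the synapsins and from -0.87 to 0.16 in the SV2 genes. These shares were not tested, and the 2 inputs give little measure of their own spread.

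**Figure D4:**
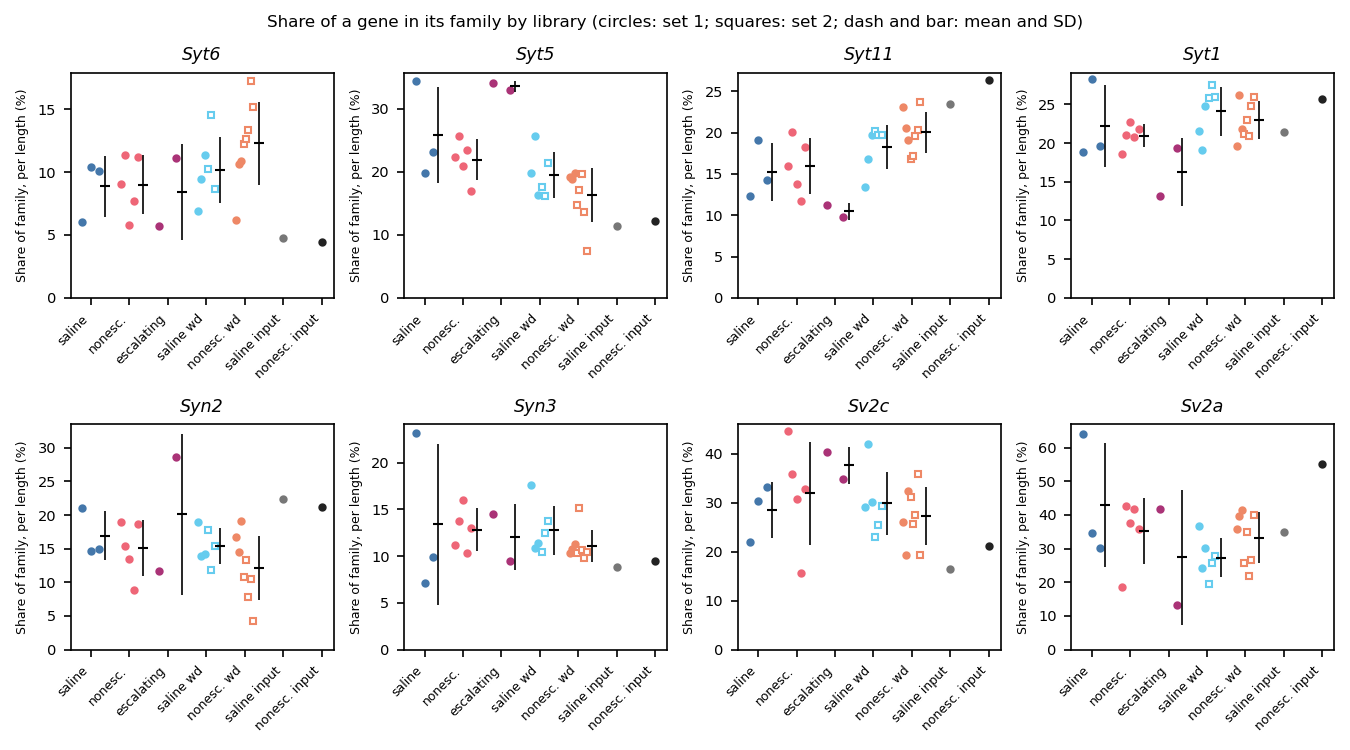
Share of each gene in its family per exon length (%), by group; circles are library set 1, squares set 2, and the dash with bar is the mean with SD. Syt6 lies above both inputs in 24 of 24 libraries and Syt11 below both in 23 of 24.

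The bases before the start site of 4 of these genes are shown, as genes whose shares stood apart from the inputs (Syt6, Sv2c), the only gene with the 2 longest motifs found (Syn1), and a paralogue of Sv2c with TATAAA on the opposite strand, read here as TTTATA (Sv2b). Capitals mark TGACGTCA (the cyclic AMP response element), TTCAGCACC (the left arm of RE1, the element bound by REST), GGGCGG (the Sp1 box) and TATAAA, on either strand. Sequences are from RefSeq on GRCm38.p6, 5′ to 3′ on the gene's strand, cut where the GENCODE gene begins: Syn1 at chrX:20921005-20921168 (minus), Sv2c at chr13:96132578-96132827 (minus), Sv2b at chr7:75309263-75309512 (minus, 1 of 4 start sites) and Syt6 at chr3:103574995-103575230 (plus, 1 of 3 start sites).
Syn1: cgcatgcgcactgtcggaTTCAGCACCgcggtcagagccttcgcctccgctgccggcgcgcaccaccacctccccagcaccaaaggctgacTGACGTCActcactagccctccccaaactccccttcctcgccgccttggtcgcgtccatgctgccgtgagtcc
Sv2c: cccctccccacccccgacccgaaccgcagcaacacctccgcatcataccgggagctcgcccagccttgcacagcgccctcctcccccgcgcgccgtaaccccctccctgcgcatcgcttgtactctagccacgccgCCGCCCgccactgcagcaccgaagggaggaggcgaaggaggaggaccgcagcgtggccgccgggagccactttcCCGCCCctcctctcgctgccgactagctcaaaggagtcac
Sv2b: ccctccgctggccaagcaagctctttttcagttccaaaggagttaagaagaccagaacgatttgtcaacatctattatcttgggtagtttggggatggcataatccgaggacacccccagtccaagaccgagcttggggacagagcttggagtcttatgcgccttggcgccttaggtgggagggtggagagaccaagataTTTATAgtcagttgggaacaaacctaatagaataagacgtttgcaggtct
Syt6: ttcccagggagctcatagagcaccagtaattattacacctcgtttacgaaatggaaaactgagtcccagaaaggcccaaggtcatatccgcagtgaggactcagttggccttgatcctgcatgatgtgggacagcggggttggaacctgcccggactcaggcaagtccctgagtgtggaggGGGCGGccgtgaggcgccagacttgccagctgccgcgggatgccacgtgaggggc

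Sv2c was GC-rich (70.8% GC, 26 CpG) and Sv2b was not (48.8% GC, 7 CpG). Over the 250 bases before each start site, 49 of the 61 genes had an entry. TGACGTCA was found in 1 of 49 (2.04%), Syn1, against 2.92% of 11515 tested genes. TTCAGCACC was found in 1 of 49 (2.04%), again Syn1, against 0.391%, and the right arm of RE1 in 0 of 49 against 0.669%. GGGCGG was found in 36 of 49 (73.5%) against 61.9%, TATAAA in 4 of 49 (8.16%) against 8.22%, and TGACG, which is part of TGACGTCA, in 14 of 49 (28.6%) against 29.3%. These are matches of letters, on both strands.

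For the drug groups all 24 immunopurified libraries were fitted together with library set as a term, over 15854 genes, of which 59 belong to this set of genes (all but Cplx3 and Stx19). In each of the 7 comparisons none of the 59 passed an adjusted p of 0.05 in edgeR's quasi-likelihood test, and none of the 15854 did (0%). The counts of genes with an unadjusted p under 0.05 were 1 in nonescalating against saline, 4 in escalating against saline, 6 in escalating against nonescalating, 2 in nonescalating withdrawal against saline withdrawal, 1 in saline withdrawal against saline, 1 in nonescalating withdrawal against nonescalating, and 0 for the difference of the cocaine effects. In that order the share of all genes was 6.74%, 8.09%, 8.75%, 3.49%, 6.64%, 2.78% and 4.89%. DESeq2 called 0 to 225 genes in these comparisons and 1 of the 59, Stxbp4 between escalating and nonescalating, where it called 1.42% of all genes; limma voom called 0 to 8 genes and none of the 59. The comparisons share control libraries, so their values are given side by side and not set against each other. Cell type marker lists whose tested genes all had values of 1 sign are given with each comparison, and their part in the results was not tested.

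Nonescalating cocaine was first compared with saline. A total of 36 of 59 genes had lower values, with a median log2 fold change of -0.18 (all genes 0.01). All 6 oligodendrocyte markers had positive values (median 0.73). Sv2a (chr3:96181151-96195521, plus strand) was at 89.4, 163, 222, 61.1 and 128 CPM in nonescalating libraries and at 337, 233 and 95.7 CPM in saline. The groups overlapped, with -0.79 on the log2 scale (SE 0.41, adjusted p = 0.738).

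The genes higher with the smallest p were low ones. Syt2 was at 13.04, 1.81, 54.5, 1.12 and 9.77 CPM against 0.214, 0 and 3.99 CPM in saline. Its log2 fold change was 3.56 (SE 1.68, adjusted p = 0.721). Syt15, which lacks calcium-binding residues, was at 8.71 to 27.7 CPM in the 5 libraries against 0 to 6.44 CPM in saline, without overlap (log2 2.45, SE 1.51, adjusted p = 0.803). It was the 1 of 59 genes (1.69%) above all saline libraries, where 1.26% of all genes were; none lay below all, where 1.12% did.

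Without saline library 1808 the median of the 59 genes in this comparison was 0.33 in place of -0.18, and 39 of 59 values were higher. Without nonescalating library 1813 it was -0.01. Leaving out that 1 control reversed the direction of the median. Among the core genes, small values with wide errors were found for Snap25 at -0.21 (SE 0.43), Vamp2 at -0.36 (SE 0.38), Syt1 at -0.25 (SE 0.36) and Cplx2 at -0.34 (SE 0.41).

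Escalating intake was represented by 2 libraries. Against saline, 36 of 59 genes had higher values, with a median of 0.21 (all genes -0.08); the median was 0.54 without saline library 1808 and -0.08 without saline library 1806. All 6 D2 markers had positive values (median 0.43). The 2 escalating libraries lay above all 3 saline libraries for 7 of 59 genes (11.9%, against 7.66% of all genes) and below for 5 (8.47%, against 6.55%). The 7 were Stxbp6, Sv2c, Syt10, Syt2, Syt5, Syt7 and Unc13a, and the 5 were Bsn, Stx16, Stx17, Stx8 and Stxbp4.

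Syt5 (chr7:4539765-4547541, minus strand), a calcium-binding synaptotagmin of vesicle membranes, was at 404 and 406 CPM in the escalating libraries. It was at 179, 208 and 179 CPM in saline and at 237, 130, 246, 83.6 and 109 CPM in nonescalating libraries, so that both escalating libraries stood above all 8 others without withdrawal. The log2 fold change was 1.08 (SE 0.48, adjusted p = 0.614) over saline and 1.34 (SE 0.42, adjusted p = 0.558) over nonescalating. No other of the 24 libraries reached them: saline withdrawal ran from 132 to 288 CPM (median 171) and nonescalating withdrawal from 57.0 to 194 CPM (median 139). By share of the family the separation was less clean, since saline library 1806 had 34.3%, above the escalating 34.1% and 32.9%.

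Stxbp4 (synip, a syntaxin 4-binding protein known from insulin-stimulated glucose transporter traffic; chr11:90476492-90638084, minus strand) was at 9.92 and 13.4 CPM in the escalating libraries. It was at 60.0, 61.0, 66.1, 37.5 and 64.5 CPM in nonescalating and at 52.1, 29.9 and 34.6 CPM in saline libraries. The withdrawal groups ran from 34.8 to 72.2 CPM (median 57.0) in saline and from 21.2 to 129 CPM (median 47.9) in nonescalating animals, so that the escalating libraries were the lowest of the 24. The log2 fold change was -2.30 (SE 0.66, adjusted p = 0.558) against nonescalating and -1.76 (SE 0.67, adjusted p = 0.614) against saline. DESeq2 gave -2.43 (adjusted p = 0.00357) against nonescalating, and over all alternatives the adjusted p ran from 0.00357 to 0.809.

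Stxbp6 was at 53.8 and 67.6 CPM in the escalating libraries, against 4.48 to 19.9 CPM in saline (log2 2.05, SE 0.87, adjusted p = 0.614). Stx8, an endosomal syntaxin, was at 3.70 and 5.60 CPM against 7.93, 26.9 and 34.3 CPM in saline (log2 -2.31, SE 1.08, adjusted p = 0.614). In both genes the groups did not overlap. Against nonescalating, 37 of 59 genes had higher values in escalating libraries (median 0.24, all genes -0.12), and the median was 0.10 without library 1813 and 0.51 without library 1812. In that contrast 8 of 59 genes (13.6%, against 9.06% of all genes) did not overlap: Stxbp6, Syt10 and Syt5 lay above all nonescalating libraries, and Stx17, Stx8, Stxbp4, Syt15 and Vamp5 below.

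Syp was at 1293 and 2039 CPM in escalating and at 1351, 439, 1375, 463 and 613 CPM in nonescalating libraries. The groups overlapped (log2 0.99, SE 0.45, adjusted p = 0.558). All 3 SV2 genes, all 3 synapsins, all 4 Rab3 genes and all 4 active zone genes had positive values in this contrast, whereas 11 of 13 syntaxins had negative ones, with family medians of 0.74, 0.28, 0.59, 0.35 and -0.42. In the same contrast all 6 D2 markers (median 0.50) and all 7 markers shared by medium spiny neurons (0.33) had positive values, and all 6 astrocyte markers (-1.18) and all 6 oligodendrocyte markers (-1.02) negative ones.

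**Figure D5:**
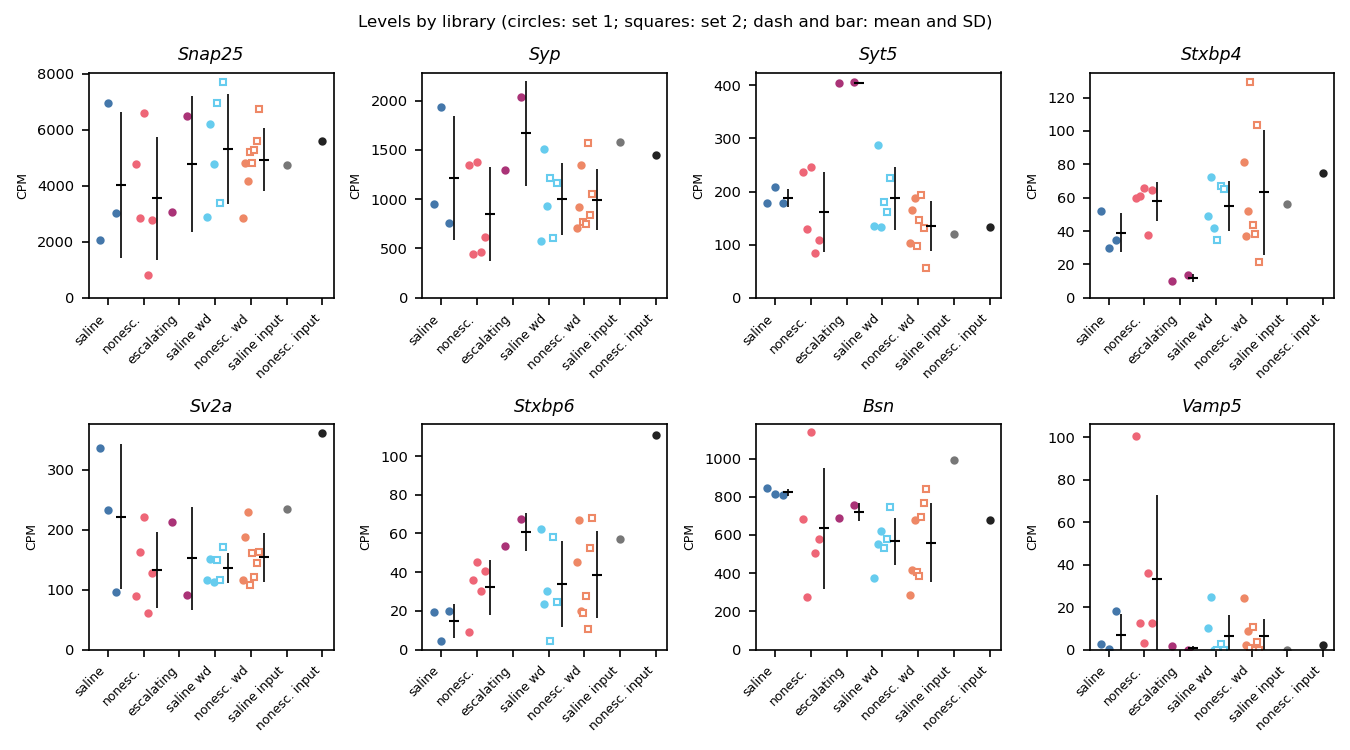
CPM of 8 genes by group, 1 point a library (circles set 1, squares set 2), with the mean and SD beside each group. Escalating libraries lie apart for Syt5 (404 and 406 CPM) and Stxbp4 (9.92 and 13.4 CPM), while groups overlap for Snap25 and Syp.

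After withdrawal, nonescalating cocaine was compared with saline in 8 and 6 libraries, the largest groups. None of the 59 genes separated the groups in either direction, against 0.0189% of all genes higher and 0.0126% lower. A total of 37 of 59 genes had lower values, with a median of -0.08 (all genes 0.05). All 6 D1 markers had positive values (median 0.22). Standard errors here were the smallest: Snap25 was at -0.18 (SE 0.33), Syt1 at -0.30 (SE 0.27), Vamp2 at -0.06 (SE 0.28), Bsn at -0.08 (SE 0.27) and Syp at -0.02 (SE 0.31).

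The smallest p values belonged to Syt15 (log2 2.44, SE 1.11) and Vamp8 (3.42, SE 1.65), both with adjusted p = 1. Vamp8, an endosomal and exocrine SNARE, was at 0 to 9.91 CPM (median 0.240) in saline withdrawal and at 0 to 22.3 CPM (median 3.25) in nonescalating withdrawal, so that most of its values lie near the floor. Of well-measured genes Syt5 came next among the lower ones, at 132 to 288 CPM (median 171) in saline withdrawal and 57.0 to 194 CPM (median 139) in nonescalating withdrawal (log2 -0.48, SE 0.29, adjusted p = 1). The groups overlapped. All 4 Rab3 genes had negative values (median -0.44), as did 12 of 16 synaptotagmins (median -0.10). Within library set 1 alone Rab3a was at 0.15 and within set 2 at -0.52, and Rims1 was at -0.35 in set 1 and 1.29 in set 2.

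Withdrawal was compared with none in saline animals. Bsn (Bassoon; chr9:108096022-108190384, minus strand) was at 845, 814 and 809 CPM in saline and at 372 to 746 CPM (median 567) in the 6 saline withdrawal libraries, so that the groups did not overlap. The log2 fold change was -0.77 (SE 0.37, adjusted p = 0.743). It was the 1 of 59 genes (1.69%) below all saline libraries, where 1.10% of all genes were; none lay above, where 1.21% did. Its fellow scaffold Pclo was at 907, 1522 and 1576 CPM in saline and at 673 to 2147 CPM (median 1411) in saline withdrawal (log2 -0.36, SE 0.37), with overlap. A total of 37 of 59 genes had higher values (median 0.09, all genes -0.05); the median was 0.33 without saline library 1808 and -0.13 without 1806. All 5 microglia markers tested (median -2.26), all 5 of glutamatergic neurons (-1.94) and all 6 of endothelial and mural cells (-0.45) had negative values.

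In nonescalating animals withdrawal left the genes evenly split, with 30 of 59 higher and a median of 0.00 (all genes 0.01), or 0.30 without library 1812 and -0.10 without library 1813. All 6 astrocyte markers (median -0.998) and all 5 microglia markers tested (-1.75) had negative values, and all 7 shared medium spiny neuron markers positive ones (0.42). No gene separated the 8 from the 5 libraries, against 0.0631% of all genes higher and 0.0568% lower. Stx6 was at 15.4 to 78.4 CPM (median 35.3) after withdrawal and at 54.2 to 124 CPM (median 63.0) without, with overlap (log2 -0.83, SE 0.44, adjusted p = 1). Vamp8 had the 1 unadjusted p under 0.05 (log2 4.53, SE 1.88, adjusted p = 1). The difference between the cocaine effects with and without withdrawal was tested directly. No gene reached an unadjusted p of 0.05, the smallest among well-measured genes being that of Sv2a (0.96, SE 0.51, adjusted p = 1), and the median was 0.00 (-0.34 without saline library 1808). All 6 endothelial and mural markers (median 0.48) and all 5 GABA interneuron markers tested (0.46) had positive values.

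Other genes of the release cycle were taken from a list fixed with earlier results known. From this list of 80 (active zone scaffolds, fusion and priming factors, vesicle membrane and filling proteins, and retrieval by endocytosis), 77 were tested against input and 78 in the drug comparisons, and none passed edgeR's test in any of the 8; an unadjusted p under 0.05 was reached by 9 of 77 against input (11.7%, against 8.27% of all genes). In the drug comparisons, in the order given above, it was reached by 4, 5, 3, 1, 6, 1 and 3 of 78, or 5.13%, 6.41%, 3.85%, 1.28%, 7.69%, 1.28% and 3.85%, where the shares of all genes were 6.74%, 8.09%, 8.75%, 3.49%, 6.64%, 2.78% and 4.89%. Against input 55 of 77 had lower values (median -0.32). Cadps, the priming factor CAPS of dense-core vesicles, came nearest: it was at 425 ± 22.7 CPM (SD, n = 2) in the inputs and at 114 ± 65.0 CPM (SD, n = 8) after immunopurification, below both inputs in all 8 (log2 -2.14, SE 0.48, adjusted p = 0.0714 in edgeR's test). Amph and Sh3gl2 of the endocytic machinery were likewise below both inputs in 8 of 8, at -1.56 and -1.25. Between the drug groups the smallest p belonged to genes such as Rims3 (7.06, SE 2.41, nonescalating against saline, a gene near the floor in saline), Itsn1 (-1.03, SE 0.38, same contrast) and Syngr3 (1.70, SE 0.62, escalating against nonescalating).

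Stxbp3 and Stxbp3a are taken here as names of 1 gene, Munc18c, the partner of syntaxin 4. The lookup of reference symbols gave no gene for Stxbp3a. The files of library set 1 use the first and those of set 2 the second, so neither row entered the fits, and their values, CPM without TMM factors, were looked at after the others. In set 2 the row was at 1.76, 8.85 and 0.339 CPM in saline withdrawal and at 37.3, 27.5, 32.3, 13.8 and 11.03 CPM in nonescalating withdrawal, without overlap. In set 1 it was at 31.4, 4.90 and 17.4 CPM in saline withdrawal and at 30.7, 23.2 and 10.2 CPM in nonescalating withdrawal, with overlap. The value in saline withdrawal library 1838 is 1 count. The share of all genes that did not overlap within set 2 alone was not computed, so the separation there has no yardstick. In set 1 without withdrawal the row ran from 0.587 CPM in nonescalating library 1812 to 102 CPM in escalating library 1815. The other escalating library was at 2.62 CPM.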

How the data were processed

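Read counts per gene symbol were deposited by the authors as whole numbers, 1 file for each of 26 libraries, not normalized. The submitters' processing notes name STAR 2.0.0e, HTSeq and mm10; for the annotation and the use of strand the sources used here say nothing, so overlapping or antisense genes cannot be told apart. HTSeq summary rows were left out, which left 13.7% to 48.6% of each immunopurified library in genes, and the 31735 gene rows common to all files were used. Groups follow the titles. Tests used R 4.3.3, edgeR 4.0.16 (quasi-likelihood, robust, TMM, filterByExpr with a minimum count of 10, Benjamini-Hochberg over all genes, threshold 0.05), with DESeq2 1.42.0 and limma 3.58.1 as alternatives. The fits were run on simulated counts with the same spread for every gene and changes only in genes of high counts. This does not cover genes of low counts or shifts of whole libraries. Standard errors are the fold change over the root of F. The genes and lists were chosen with earlier results of these data known. A rule listed the genes that could be named. In each comparison these were the 19 core genes and, in each direction, the 5 of lowest p at a mean log2 CPM of at least 2. Further ones were the 3 highest and the lowest per length in each family, and the 3 other release genes of lowest p. Drd2, Drd1 and Malat1 were checks of the libraries. Not all of the listed genes are given in the text, and the rule does not say which to give. Other genes named for groups that did not overlap, and Stxbp3, were chosen after their values were seen. Alternatives were other scalings, filters, samples in the fit, a replicate block, each library set alone, the fit with no term for it, and each library left out. Replicate numbers recur between groups. Same-numbered libraries correlated at -0.14 to 0.27 in their deviations from group means, and differently numbered ones at -0.30 to 0.25. With so few libraries in a group, these values cannot settle whether same-numbered libraries are pairs. They were not treated as pairs in the main fits. Results for 2 of the genes are not reported here.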

Additional observations from a re-analysis of the deposited data

Results flagged for a closer look

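Within groups of 5 to 8 libraries, Dixon's test was run on 44 genes and on the summed level of the release genes. A highest or lowest library stood apart in 18 of 135 tests, all of them of single genes. The test's chance rate of about 1 in 20 holds for normally distributed values. It was run on CPM, which are often low and uneven, so the 18 cannot be set against that rate. In nonescalating libraries, library 1811 was high for Stx17 (78.0 CPM, next 42.9), library 1812 for Stx2 (76.7 CPM, next 8.31) and Syt2 (54.5 CPM, next 13.04), and library 1813 was low for Stxbp4 (37.5 CPM, next 60.0). In saline withdrawal, library 1817 was low for Cplx2 (670 CPM, next 1531) and high for Stx5a (68.2 CPM, next 29.0) and Syt10 (35.1 CPM, next 9.34). Library 1818 was high for Rims1 (104 CPM, next 49.5) and library 1819 for Vamp8 (9.91 CPM, next 1.04).

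In nonescalating withdrawal, library 1820 was high for Vamp3 (78.5 CPM, next 31.7) and Vamp5 (24.4 CPM, next 10.4). Library 1823 was high for Stx2 (18.8 CPM, next 7.28), Stx4a (180.3 CPM, next 99.9) and Syt2 (31.2 CPM, next 12.9). Library 1839 was high for Stx16 (236 CPM, next 148) and Stxbp2 (77.4 CPM, next 40.2). Library 1843 was high for Stx8 (219.988 CPM, next 48.8) and Syt10 (49.7 CPM, next 18.2). The cause of these values was not tested.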

How the results depend on the processing

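In 162 of 165 values the number of genes called stayed at 0. The exceptions were 1 gene by DESeq2 and 10 by limma voom against input, where these called 757 and 1090 of all genes, and 1 by DESeq2 between escalating and nonescalating, among 225; the cause was not tested. Leaving out each library in turn left the number at 0 in every comparison. With a replicate block 0 of these genes were called in any comparison, while genes called against input rose from 38 to 257. Of 1564 fold changes of named genes, 1546 kept direction and side of the threshold, 8 newly passed it and 10 changed sign. Against saline withdrawal of set 1 in place of saline, nonescalating Stxbp6 was -0.28 and Sv2a 0.0180. Leaving out 1 library, Sv2b ran from -0.43 to 1.54 in escalating against nonescalating, Stx8 from -0.0743 to 0.82 between the withdrawal groups, and Syt7 from -0.73 to 0.0188 in nonescalating withdrawal against nonescalating. Without libraries 1806, 1813 and 1843, chosen after seeing the data, Stx8 was -0.0726. Stx8 was -0.17 with limma voom and -0.30 with the replicate block. Syt7 in the difference was 0.13 with limma voom, and Pclo in saline withdrawal against saline 0.0720 with no library set term. Escalating has 2 libraries and the inputs 1 per agent, and 3 counts are up to 1.95 CPM before TMM scaling. This limits statements on genes such as Vamp8, Syt9 and Syt17.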
